A study of Saccharomyces cerevisiae with 6 samples.

Results

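The 6 genes described here encode structural proteins of the yeast cell wall. PIR1, PIR3, HSP150 and CIS3 belong to the PIR family (proteins with internal repeats), and CWP1 and CWP2 encode mannoproteins first isolated from the wall. The members were named by symbol after the difference between the strains was known from these data, so their values are given as a description and are not tested. The symbols matched 7 of the 5703 features in the tables, because 2 features carry the name HSP150. Transcripts were measured by RNA sequencing in Saccharomyces cerevisiae strains IMF17 and IMX2109, each grown from a freezer stock and carried into biological triplicate. IMF17 expresses glycolysis only from a neochromosome, an added designer chromosome, and IMX2109 expresses it from its native genome. Both strains grew aerobically in shake flasks of 500 mL with 100 mL of selective minimal medium with glucose and were sampled in mid-exponential phase at an optical density of 8 at 660 nm. Each genotype is represented by cultures of 1 strain.

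The wall of yeast is a mesh of β-glucan and chitin that carries an outer layer of mannoproteins. PIR proteins are O-mannosylated in the secretory pathway, cleaved by the Kex2 protease and bound to glucan by an alkali-sensitive ester link made through their repeats. Cwp1 and Cwp2 carry a glycosylphosphatidylinositol (GPI) anchor that is trimmed when the protein is attached to the wall. Transcription of several of these genes is known to depend on the cell wall integrity pathway, in which membrane sensors, the GTPase Rho1, protein kinase C and the MAP kinase Slt2 act on the transcription factor Rlm1, and PIR genes also peak around the exit from mitosis.

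The libraries held 14696540 to 18801158 counted reads. The labels were checked with 26 neochromosome features named as hypothetical proteins, whose reads numbered 254589 to 276105 in the IMF17 libraries and 1 to 5 in those of IMX2109. Features of the nuclear chromosomes took 84.2 to 84.9% of reads in IMF17 and 90.0 to 91.0% in IMX2109, and because FPKM (reads scaled to feature length and to all counted reads of the library) includes the other reads in its scale, nuclear features come out lower in IMF17 from this alone. IMX2109 replicate 3 stood farthest from the other replicates of its strain, with a scatter of 18.1 and 8.52 times the sampling noise against 3.15 to 7.21 for the other pairs.

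Of the PIR genes, PIR3 was higher in IMF17 by more than any other member, HSP150 was moderately higher, CIS3 was about equal and PIR1 was lower. Of the CWP genes, CWP1 was 2.32-fold higher and CWP2, already among the most abundant transcripts, was slightly higher. For 4 of the 6 genes the lowest IMF17 library exceeded the highest of IMX2109 (14.5% of the 5425 features tested did so), and for PIR1 the order was the opposite (35.1% of features). Since the genes were chosen on this contrast, nothing is read from these shares.

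PIR3 stood at 66.6, 71.8 and 67.9 FPKM in IMF17 replicates 1 to 3 and at 13.2, 13.8 and 12.7 FPKM in those of IMX2109. The lowest IMF17 library was far above the highest of IMX2109, and the replicates of each strain lay close together. PIR3 encodes an O-glycosylated wall protein that was the least abundant of the 6 transcripts in both strains. Its mean was 5.20-fold higher in IMF17, and the log2 difference was 2.29 ± 0.06 (SE of the linear model fitted with limma to log2(FPKM + 1) over all features), the 9th highest of 5347 nuclear features tested. The IMX2109 level rests on 183 to 244 reads per library and the IMF17 level on 1024 to 1057.

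PIR1, which lies beside PIR3, was lower in IMF17, at 802, 804 and 789 FPKM against 950, 939 and 974 FPKM in IMX2109. Every IMF17 library was below every IMX2109 library. The mean in IMX2109 was 1.20-fold that in IMF17, a log2 difference of -0.26 ± 0.03 (SE). After rescaling the libraries on their nuclear reads the difference was -0.16, so part of its size depends on the scaling, and its sign was negative under each of the 16 other settings tried.

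HSP150, also known as PIR2, encodes a PIR protein that is released into the medium as well as bound to the wall and is known to be induced by heat shock. It stood at 1348, 1384 and 1308 FPKM in IMF17 and at 1035, 1016 and 974 FPKM in IMX2109. The groups were apart, with a 1.33-fold higher mean in IMF17 and a log2 difference of 0.42 ± 0.04 (SE). CIS3, also known as PIR4, was the member that did not separate the strains, with 652, 651 and 613 FPKM in IMF17 and 665, 624 and 594 FPKM in IMX2109. The libraries of both strains were interleaved, and the log2 difference was 0.03 ± 0.05 (SE). The second feature named HSP150 is 604 bases long and lies on chromosome 11, 619 bases beyond PIR3 on the opposite strand, whereas the HSP150 gene itself lies on chromosome 10. It had 4.27 to 5.06 FPKM in IMF17 and 2.48 to 3.79 FPKM in IMX2109, from 23 to 48 reads per library, and it is kept apart from the gene below.

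CWP1, a GPI-anchored mannoprotein found at birth scars, stood at 230.4, 217 and 196 FPKM in IMF17 and at 100.3, 98.9 and 78.6 FPKM in IMX2109. The groups were wide apart although both were more scattered than those of PIR1, and replicate 3 was the lowest in each strain. The mean was 2.32-fold higher in IMF17, with a log2 difference of 1.21 ± 0.09 (SE). CWP2, a major GPI-anchored mannoprotein of the wall, stood at 4379, 4427 and 4272 FPKM in IMF17 and at 4050, 3652 and 3180 FPKM in IMX2109. The groups did not overlap, but the IMX2109 libraries spread widely, with an SD of 435 against 79.1 FPKM in IMF17. The mean was 1.20-fold higher in IMF17 and the log2 difference was 0.27 ± 0.07 (SE). Without IMX2109 replicate 3, its lowest library, the difference was 0.18 for CWP2 and 1.10 for CWP1.

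**Figure D1:**
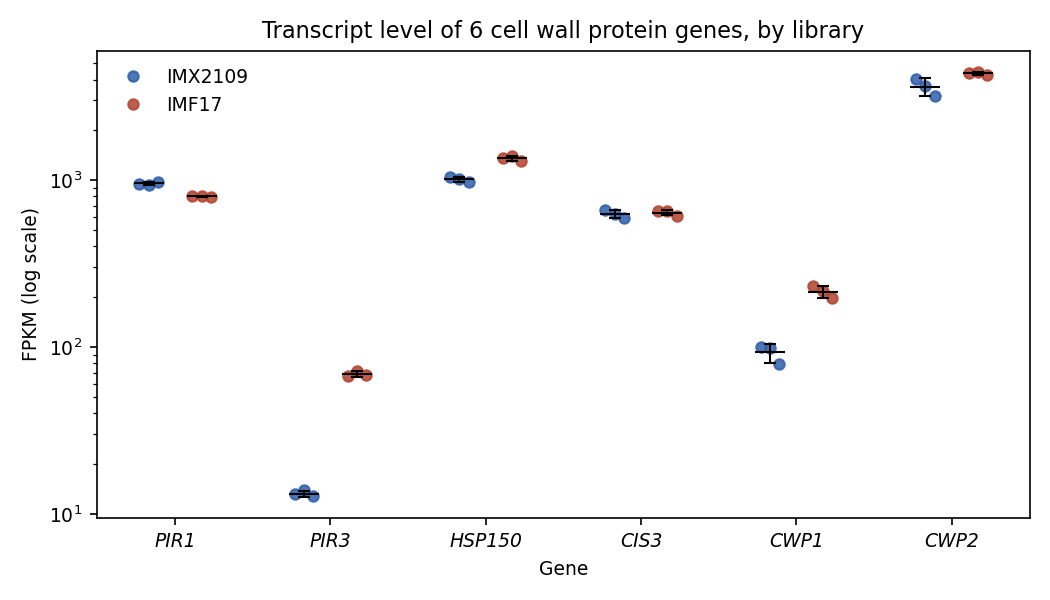
FPKM of the 6 genes (log axis) in each library of IMX2109 (blue) and IMF17 (red), with the mean and SD of 3 libraries in black. PIR3 and CWP1 show the widest gaps between strains, PIR1 is lower in IMF17 and CIS3 overlaps.

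On the FPKM scale, which is per length and so allows levels to be set against each other, the order in IMF17 was CWP2, HSP150, PIR1, CIS3, CWP1 and PIR3, with means of 4359, 1347, 799, 639, 214 and 68.8 FPKM. Every neighbour in this order was separated in IMF17. In IMX2109 the order of means was the same, at 3627, 1009, 955, 628, 92.6 and 13.2 FPKM, but HSP150 and PIR1 overlapped there. CWP2 ranked 17 among the 5703 features in IMF17 and 23 in IMX2109, whereas PIR3 ranked 2230 and 4808. The 6 genes together took 0.427 to 0.447% of reads in IMF17 and 0.358 to 0.394% in IMX2109. The summed FPKM of the 4 PIR genes was 2852 ± 68.2 in IMF17 and 2605 ± 54.9 in IMX2109 (SD, n = 3), so the sum differed far less than PIR3 did, and PIR3 made up 2.41% of it in IMF17 and 0.508% in IMX2109.

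The 6 genes lie as 3 adjacent pairs, and in every pair the partners differed in how far they moved between strains. On the IMF17 assembly used in the tables, PIR1 (142104 to 143129, minus strand) and PIR3 (144711 to 145688, plus strand) stand back to back on chromosome 11 with 1581 bases between them. HSP150 (127503 to 128759, plus strand) and CIS3 (129334 to 130011, minus strand) face each other on chromosome 10 across 574 bases, and CWP2 (258057 to 258335) and CWP1 (259936 to 260655) follow each other on the plus strand of chromosome 11 with 1600 bases between. The ratio of the partners' FPKM within a library does not depend on how libraries are scaled. PIR1 was 12.0, 11.2 and 11.6 times the level of PIR3 in the IMF17 libraries and 72.2, 68.0 and 76.5 times in those of IMX2109. CWP2 was 19.0, 20.4 and 21.8 times the level of CWP1 in IMF17 and 40.4, 36.9 and 40.4 times in IMX2109. HSP150 was 2.07, 2.13 and 2.13 times the level of CIS3 in IMF17 and 1.56, 1.63 and 1.64 times in IMX2109. None of the 3 ratios overlapped between the strains. The genes were chosen on this contrast and other adjacent pairs were not counted, so nothing is read from that. The partner that was less abundant in IMX2109 gained on the other at the PIR1/PIR3 and CWP2/CWP1 pairs, and the more abundant one gained at HSP150/CIS3.

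**Figure D2:**
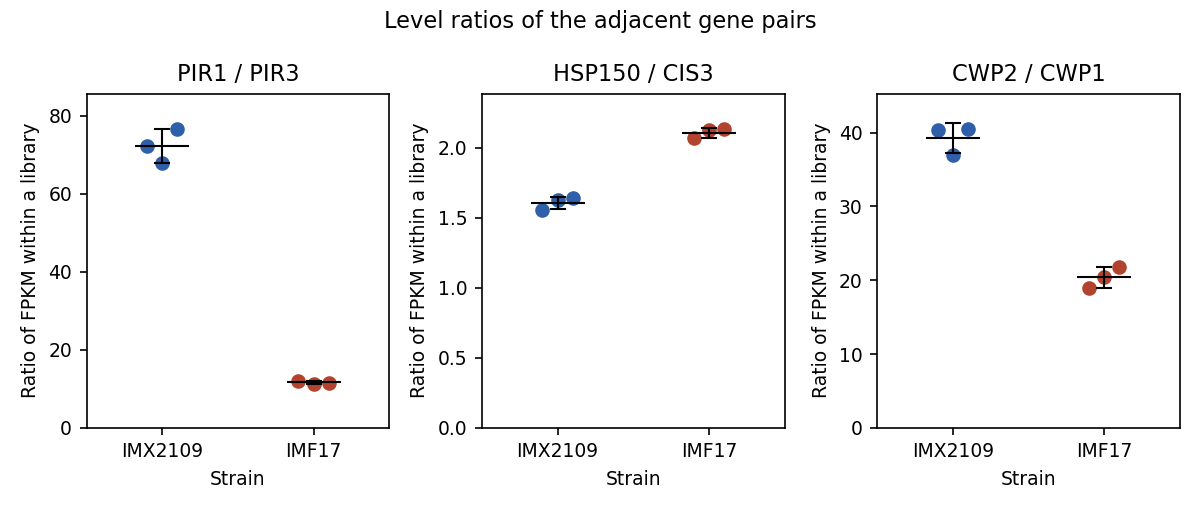
Ratio of FPKM between the partners of each adjacent pair (linear axes from 0), in each library of IMX2109 and IMF17, with mean and SD of 3 libraries. PIR1/PIR3 lies at 68.0 to 76.5 in IMX2109 and at 11.2 to 12.0 in IMF17, CWP2/CWP1 is lower in IMF17 and HSP150/CIS3 is higher in IMF17.

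Flanking features, which the choice of members did not use, were tested in the fit over all features. The nearest 2 on each side of each pair gave 11 besides the second HSP150 feature. Of these, 7 did not pass the test, FMP33 and PIR5 rose, and TPK3 and UTP11 fell. Over all tested features 12.1% were higher and 25.3% lower in IMF17, and 2 higher and 2 lower of 11 is near that background. FMP33, which encodes a mitochondrial protein of unknown function and lies 2662 bases to the left of HSP150, rose from 8.88 ± 0.195 to 22.6 ± 1.03 FPKM (SD, n = 3), a log2 difference of 1.25 ± 0.07 (SE, limma adjusted p = 2.04e-07). PIR5, the PIR family gene outside the 6, rose from 1.67 ± 0.142 to 2.53 ± 0.340 FPKM (limma adjusted p = 0.021), with adjusted p from 0.0054 to 0.0809 over the other settings and above the threshold without any one of IMF17 replicate 3 and IMX2109 replicates 1 and 2. Its feature is 3276 bases long and overlaps HSP150 by 788 bases on the opposite strand. The length of this feature was not compared with the reference, so the rise is that of the feature and may not be that of the gene. The sources used here do not say whether counting used strand, so reads of the overlap could be assigned to either feature or dropped in both strains.

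The falls of TPK3, a catalytic subunit of protein kinase A, and UTP11, a ribosome biogenesis factor, were small, at -0.16 and -0.24 on the log2 scale (limma adjusted p = 0.0402 and 0.0449). Both lost the call after rescaling on nuclear reads, and over the other settings the adjusted p reached 0.385 and 0.224. Nearest to CWP1, YJU2 (log2 difference 0.11) and YJU3 (0.01) did not pass, nor did MTC2 next to CWP2. Next to PIR1, MCD4, a GPI anchor synthesis gene, did not pass (-0.08).

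**Figure D3:**
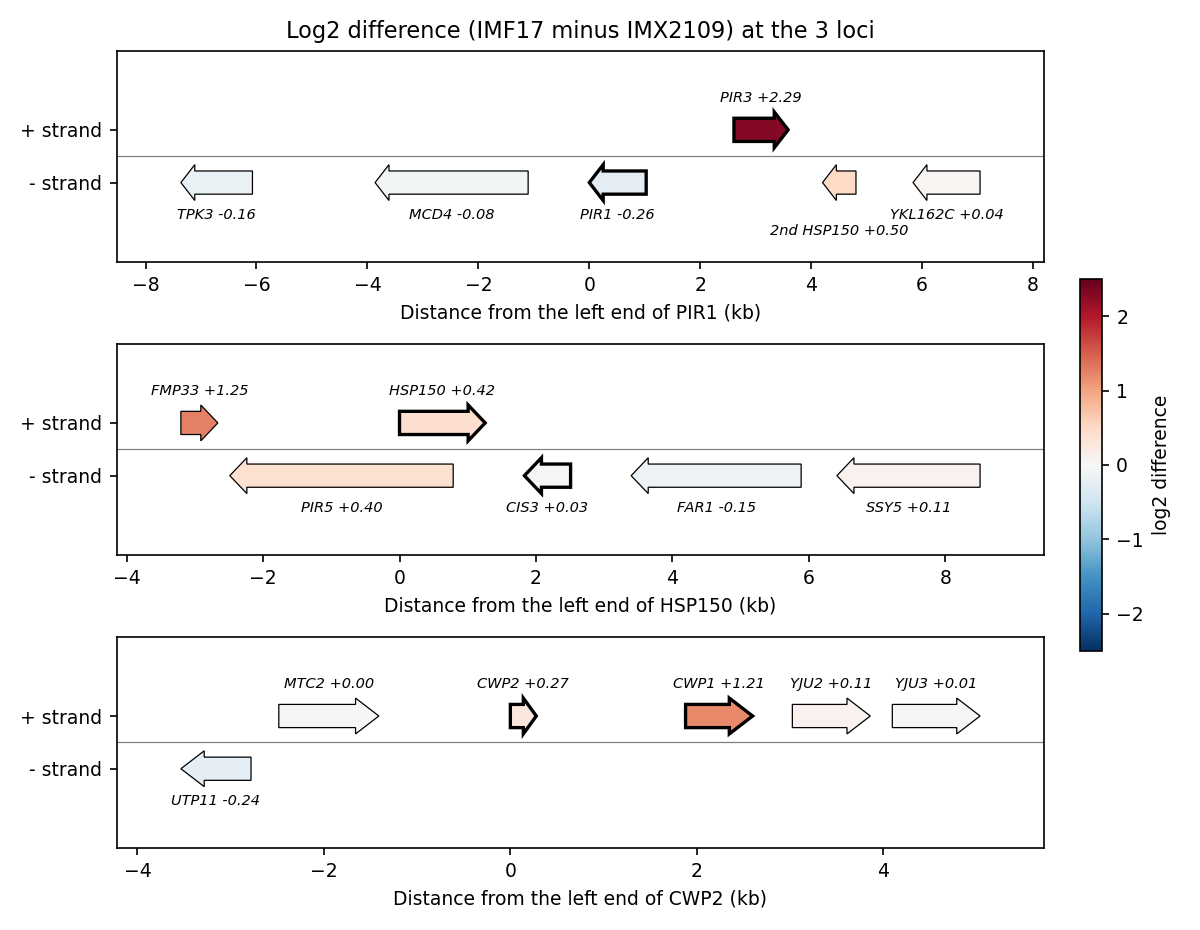
Maps of the 3 pairs with their nearest features, drawn to scale as arrows in the direction of transcription, with distance in kb from the left end of the left partner and colour and number giving the log2 difference of IMF17 minus IMX2109. Thick outlines mark the 6 genes, of which PIR3 (2.29) and CWP1 (1.21) are the most strongly coloured, and FMP33 (1.25) is the one flanking feature of like size.

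The DNA before the start codons was read from the S. cerevisiae S288C reference (RefSeq, R64), by locus tag. That reference is not the assembly of the tables. Coding lengths were equal to the table lengths for PIR1, PIR3, CWP1 and CWP2, HSP150 was 15 bases longer and CIS3 6 bases shorter in the tables, and the 3 gaps between partners were the same in both. A search on both strands for 4 patterns was made in 250 bases before to 50 after each start codon, and then, with a window chosen after the data were seen, in 600 bases before it. The Rlm1 pattern, CTA and TAG with 4 bases of any kind between, reads the same on both strands. In the shorter window it was found before HSP150 alone among the 6 (5.57% of 6001 promoters). Within 600 bases it was found before PIR3, HSP150 and CWP1, and before 10.9% of 5999 promoters of the reference. Both the members and this window were chosen with the data known, so no link between the pattern and the differences is read from this. It was found in neither window of PIR1, CIS3 and CWP2. The stretches that hold it are shown with the pattern in capitals. They run from 300 bases before the start codon to the base before it for PIR3 (chrXI:144101-144400, plus strand) and HSP150 (chrX:120149-120448, plus strand), and from 500 to 201 bases before it for CWP1 (chrXI:260632-260931, plus strand).
PIR3: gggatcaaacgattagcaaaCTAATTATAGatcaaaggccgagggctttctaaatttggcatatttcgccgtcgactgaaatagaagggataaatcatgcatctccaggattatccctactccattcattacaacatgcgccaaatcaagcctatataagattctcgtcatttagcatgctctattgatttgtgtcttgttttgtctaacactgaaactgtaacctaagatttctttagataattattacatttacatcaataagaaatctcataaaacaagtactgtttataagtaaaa
HSP150: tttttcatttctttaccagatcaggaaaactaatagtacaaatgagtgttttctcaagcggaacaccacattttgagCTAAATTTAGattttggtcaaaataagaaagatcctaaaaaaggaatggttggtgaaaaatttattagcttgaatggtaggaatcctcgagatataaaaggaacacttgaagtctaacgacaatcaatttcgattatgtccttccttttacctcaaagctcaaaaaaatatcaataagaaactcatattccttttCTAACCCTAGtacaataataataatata
CWP1: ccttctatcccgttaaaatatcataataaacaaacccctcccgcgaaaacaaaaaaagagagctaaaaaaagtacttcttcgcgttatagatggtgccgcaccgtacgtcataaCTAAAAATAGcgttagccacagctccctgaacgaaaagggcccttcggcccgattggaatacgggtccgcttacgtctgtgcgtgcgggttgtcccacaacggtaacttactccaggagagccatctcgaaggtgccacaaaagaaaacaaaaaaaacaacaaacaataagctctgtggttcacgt

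In these stretches the Rlm1 pattern starts 280 bases before the start codon of PIR3, 386 before that of CWP1, and 223 and 28 before that of HSP150. In the shorter window the stress response element AGGGG was found before PIR1 alone among the 6 (21.6% of promoters), and the 2 other patterns before none of them. In 600 bases, the window chosen after the data were seen and longer than the stretches shown, AGGGG was found before 5 of the 6, the exception being CWP2, against 39.7% of promoters. In that window the pattern CNCGAAA of the SBF factor was found before CWP1 and CWP2 (24.7% of promoters), and the heat shock pattern GAANNTTC was found only before CWP2 (22.8%), where it overlaps the SBF match. A match is a match of letters, and binding was not measured.

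The proteins encoded by the reference genes were compared by sequence. PIR1, PIR3 and HSP150 hold 8, 8 and 11 copies of the PIR repeat signature (a pattern of 8 residues) and CIS3 holds 1. CWP1 and CWP2 also hold 1 each, PIR5, outside the 6, holds 3, and among all 6002 reference proteins 10 hold any. PIR1 and PIR3 were identical at 69.3% of aligned positions, PIR1 and HSP150 at 69.2%, and PIR3 and HSP150 at 62.7%, but CIS3 was at 35.0 to 40.0% with the other PIR proteins and CWP1 and CWP2 at 21.8% with each other. Serine and threonine, the residues that carry O-linked mannose, made up 21.2% (PIR3) to 28.5% (CWP1) of residues. Because the genes are alike, reads could be exchanged between them: 6.14% of the 50-base words of PIR1, 6.46% of PIR3, 1.34% of HSP150 and 2.52% of CIS3 also occur outside the gene, and 0% of those of CWP1 and CWP2. PIR1 had more than 10 times the level of PIR3 in every library, so an exchange of reads would weigh most on PIR3. How reads with several matches were treated is not stated in the labels or headers.

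Other wall genes were taken in 8 lists written without the 6 members and chosen with earlier results of these data known. The median log2 difference of all 5425 tested features was -0.07, with 12.1% of them higher and 25.3% lower in IMF17. The list of Rlm1 and Slt2 targets had 15 of 17 higher and 0 lower, with a median log2 difference of 0.29, although 13 of its genes also stand in another list. SED1, a GPI wall protein of the stationary phase, rose from 1693 ± 107 to 3977 ± 109 FPKM (SD, n = 3, limma adjusted p = 6.33e-09), and SPI1, its relative, rose 2.60-fold to 78.6 ± 2.35 FPKM. PST1, a GPI protein that regenerating protoplasts secrete, rose 1.62-fold (log2 0.69, limma adjusted p = 5.68e-08). KDX1, a paralog of the kinase Slt2, stood at 96.2, 104 and 96.8 FPKM in IMF17 and at 51.6, 57.5 and 53.5 FPKM in IMX2109 (limma adjusted p = 6.34e-07), and it lies 4007 bases beyond PIR3. GSC2 and YLR042C did not pass, with log2 differences of 0.19 and 0.09.

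Among the genes of the regulators, RLM1 rose from 39.0 ± 1.61 to 45.5 ± 2.40 FPKM (limma adjusted p = 0.0172), a call lost without IMF17 replicate 2 (limma adjusted p = 0.0958). SLT2 rose from 103 ± 5.71 to 133 ± 4.36 FPKM (limma adjusted p = 0.000266). SWI5 did not pass, with a log2 difference of -0.07. SWI4 of the SBF factor fell by 0.19 on the log2 scale (limma adjusted p = 0.0475), with a call lost in 9 of 16 other settings, both rescalings on reads included. Of the 24 tested genes of the integrity pathway 7 were higher and 3 lower, against 12.1% and 25.3% of all tested features. The lower count was 2 after median-ratio rescaling, 1 on nuclear reads and 1 without IMF17 replicate 2. Besides KDX1 and SLT2, the MAP kinase phosphatase gene PTP2 rose 1.32-fold. BAG7, a GTPase-activating protein for Rho1, also counts among the 7, at 0.608 ± 0.123 FPKM in IMX2109 and 2.16 ± 0.267 FPKM in IMF17. BAG7 passed the filter of 1 FPKM only through IMF17, so nothing is read from its call. Its log2 difference ran from 0.35 to 1.81 over the settings. Among 15 transcription factors linked to these promoters 2 were higher and 5 lower, near the 12.1% and 25.3% over all tested features. Of the 5, ROX1, the repressor of hypoxic genes, was 1.29-fold lower, SOK2 was 1.36-fold lower and MOT3 fell by 0.21 on the log2 scale. The lower count was 3 after median-ratio rescaling and 2 on nuclear reads, where MOT3 lost its call (limma adjusted p = 0.0865). Leaving out IMF17 replicate 1, IMF17 replicate 2, IMX2109 replicate 2 or IMX2109 replicate 3 also gave 3. The higher count was 0 without IMF17 replicate 2 and 1 without any one of IMF17 replicate 1 and IMX2109 replicates 1 and 2.

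The background for each main count in this paragraph is 12.1% higher and 25.3% lower over all tested features. Of 33 other PIR and GPI wall proteins 13 were higher and 9 lower, with a median log2 difference of 0.08, and the lower count was 4 after either rescaling. YPS3, a wall-bound aspartic protease, rose 1.66-fold. Among the 38 genes of glucan and chitin synthesis and remodelling 12 were higher and 9 lower (17 and 4 after median-ratio rescaling). GFA1, which opens the synthesis of the chitin precursor, rose 1.18-fold, while SUN4, of septum formation, and the chitin transglycosylase gene UTR2 were 1.36-fold and 1.23-fold lower. A list of genes of protein mannosylation, Kex2 and other proteases of the secretory pathway had 4 of 19 higher and 2 lower. The lower count was 1 after either rescaling or without IMF17 replicate 2 or IMX2109 replicate 2. The 4 higher were all yapsin protease genes (YPS1, YPS3, YPS5 and YPS6), and action on the PIR proteins was not tested. The protease genes YPS7 and MKC7 of the same list did not pass, with log2 differences of -0.09 and -0.07. The yapsin proteases YPS1 and YPS6 rose 1.28-fold and 1.53-fold and the mannosyltransferase gene MNN1 fell by 0.22 on the log2 scale, but KEX2 did not pass (log2 difference 0.02), nor did the O-mannosyltransferase genes PMT1 (-0.0044) and PMT2 (-0.11). Of 22 genes of GPI anchor synthesis, on which the CWP proteins depend, 0 were higher and 3 lower, among them GPI11 falling by 0.22 on the log2 scale, and after rescaling on nuclear reads the counts were 3 and 0. By median ratios they were 2 and 1, and without IMF17 replicate 2 or IMX2109 replicate 2 they were 0 and 1. The anaerobic mannoproteins DAN and TIR, which are known to replace Cwp1 and Cwp2 in the absence of oxygen, had 2 of 4 tested features higher, DAN4 at 4.95 ± 0.0915 against 3.60 ± 0.282 FPKM and TIR3 at 15.5 ± 0.347 against 12.9 ± 1.54 FPKM (limma adjusted p = 0.011 and 0.0462). The other tested features, TIR2 and TIR4, did not pass, with log2 differences of -0.13 and -0.14. The count of higher features was 0 without IMX2109 replicate 2 and 1 without any other library except IMX2109 replicate 3. The call of TIR3 was lost in 7 of 16 other settings and that of DAN4 in 1 of 15, without IMX2109 replicate 2 (limma adjusted p = 0.0598).

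**Figure D4:**
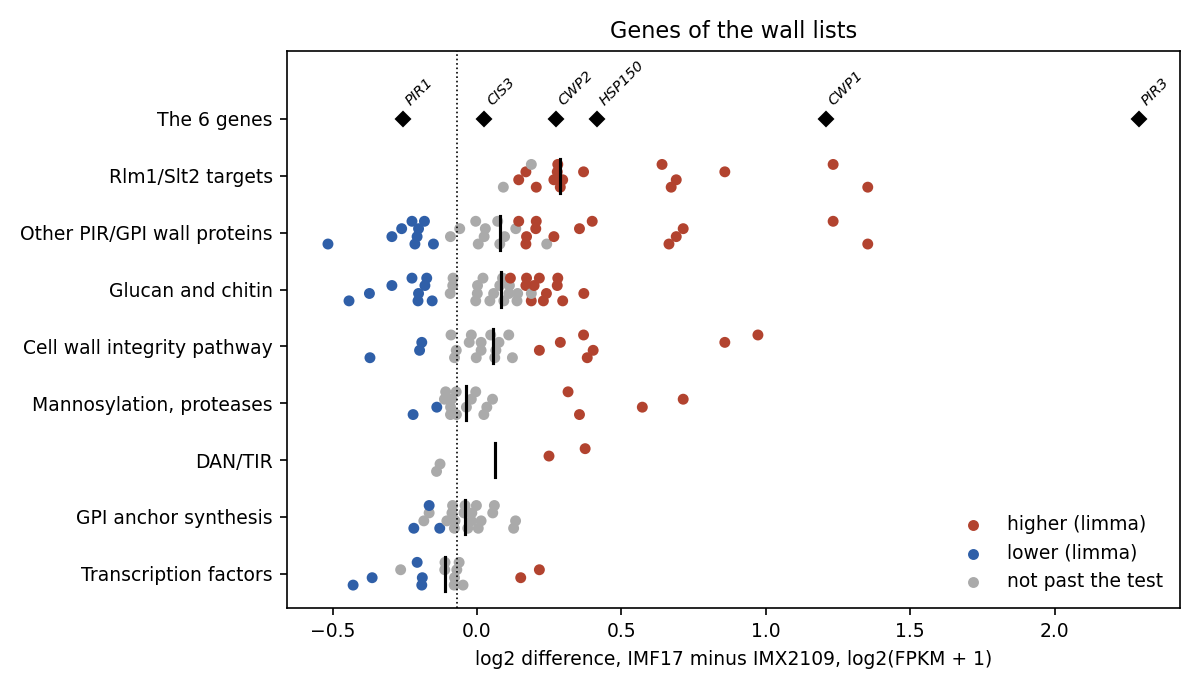
Log2 difference (IMF17 minus IMX2109, on log2(FPKM + 1)) of the tested genes of 8 wall lists, coloured by the limma call, with black bars for list medians, a dotted line for the median of all tested features (-0.07) and diamonds for the 6 genes, which were not tested. The Rlm1 targets lie to the right (median 0.29).

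The features most like each member were taken as the 2 with the highest Pearson r of log2(FPKM + 1) over the 6 libraries among 4964 others with a mean of at least 10 FPKM. With 2 strains of 3 libraries such an r mainly follows the strain difference, and 249 features had an r over 0.95 with PIR3. For PIR3 these were the neochromosome features hypothetical_protein_5 and cspE, which were at 0 FPKM in IMX2109. For PIR1 they were LYS14, an activator of lysine synthesis genes, and GCV1 of glycine cleavage, for HSP150 ECL1 and GPG1, and for CWP1 ENO2, the relocated enolase gene, and PHO11, a phosphatase gene that can share reads with a near-identical copy. CIS3 was most like SFT2 (r = 0.983) and YIR016W (0.971), and CWP2 most like ATP19 (0.993) and TMH18 (0.983). Among the members, PIR3, HSP150 and CWP1 had r from 0.980 to 0.993 with each other, and PIR1 had r from -0.982 to -0.992 with them. CIS3 had r from -0.248 to 0.401 with these 4. CWP2 had r from 0.808 to 0.889 with PIR3, HSP150 and CWP1, -0.838 with PIR1 and 0.708 with CIS3. The members were chosen on the strain difference that such an r mainly follows, so nothing is read from these values.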

How the data were processed

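Messenger RNA of 3 cultures each of IMF17 and IMX2109 was sequenced with a stranded mRNA kit, per the labels' protocols. The authors deposited FPKM, with features on a polished assembly of IMF17, per the chromosome names in the files, and the features of IMX2109 are those of that assembly too. STAR 2.5.4a, SAMtools, featureCounts, edgeR and DESeq2 are named in the submitters' processing notes, without roles. FPKM times feature length gave whole reads for 100% of values within 0.01 reads, which gave the depths. Features with a mean of at least 1 FPKM were tested on log2(FPKM + 1) with limma 3.58.1 in R 4.3.3 (trended prior variance, strain only, two-sided, Benjamini-Hochberg, threshold 0.05). Folds are ratios of mean FPKM. This scale understates changes of low features. The fit was also run on simulated counts. Those had the same spread in all libraries, unlike these data, so that run does not measure the error rate here.

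The members, lists and tests were chosen with earlier results of these data known. Named genes were the members, their flanking features, RLM1, SLT2, SWI4, SWI5 and PIR5, up to 4 called genes of each list with the smallest p, and the 2 features most like each member. A few more were added after their values were seen (GSC2, YLR042C, KEX2, PMT1, PMT2, YPS5, YPS7, MKC7, TIR2, TIR4). Lists were matched by symbol, with symbols of the R64 annotation taken by locus tag for 5497 of 5703 features. Under the symbol listed, 11 list entries matched no feature and were not analysed here. Such a gene may still have a feature under another name. A further list and 1 regulator are not reported here, and totals over the lists include them. Alignments used Biopython 1.88 (global, BLOSUM 62, gap costs 11 and 1). Other settings were other scalings, pseudocounts, filters and variances, limma-voom, a replicate block and leaving out each library.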

Additional observations from a re-analysis of the deposited data

How the results depend on the processing

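The log2 differences of PIR1, PIR3, HSP150, CWP1 and CWP2 kept their sign in all 16 other settings. Median-ratio rescaling gave -0.19 for PIR1, 2.36 for PIR3 and 0.48 for HSP150, and rescaling on nuclear reads gave -0.16, 2.38 and 0.51, and 0.12 for CIS3. PIR3 was 2.37 with a pseudocount of 0.1, 2.02 with one of 5 and 2.37 with limma-voom. The sign of CIS3 turned without IMX2109 replicate 3 (-0.01). Leaving out each library gave -0.27 to -0.24 for PIR1, 2.26 to 2.32 for PIR3, 0.39 to 0.44 for HSP150, -0.01 to 0.07 for CIS3, 1.10 to 1.27 for CWP1 and 0.18 to 0.35 for CWP2.

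Over all features 654 were higher and 1375 lower, against 882 and 641 after median-ratio rescaling and 1032 and 480 on nuclear reads. Of the 160 tested list features 38 were higher and 37 lower, and the lower count was 21 and 17 under those rescalings. The cause was not tested beyond the scaling itself, which moved the median of all features from -0.07 to -0.0047 and 0.02. Leaving out each library gave 516 to 761 higher and 939 to 1326 lower over all features, and 28 to 44 and 25 to 34 in the lists. With the replicate number as a block 685 features were higher and 1517 lower. Deviations of libraries with the same number correlated at 0.0954, -0.0517 and 0.137, and not every library correlated best with its own number, so the numbers were not taken to pair the samples. Depth limits BAG7, PIR5 and the second HSP150 feature most.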
